A study of Mus musculus with 6 samples.

Results

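The Notch pathway was followed through 10 of its genes in cultured pieces of mesoderm, the middle germ layer, taken from gastrulating mouse embryos. The genes were fixed by name and each was read from the row that carries its symbol, 10 of 46078 rows. They comprise 4 ligand genes (Jag1, Jag2, Dll1 and Dll4), 3 receptor genes (Notch1, Notch2 and Notch3) and 3 target genes (Hes1, Hey1 and Hey2). The embryos were between late streak and no bud stages, and the explants were dissected out after trypsin and pancreatin and cultured on fibronectin for about a day. Polyadenylated RNA was sequenced from 2 explants treated for 16 h with 1 µM of the inhibitor that the labels call PD, 2 treated for 16 h with 10 µM YZ9, and 2 control explants. YZ9 is a known blocker of PFKFB3, whose product stimulates glycolysis. All 6 libraries are labelled wild type, whereas the series description names a TCF/Lef:H2B-GFP reporter strain, and no source used here says if controls received vehicle.

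Notch signalling passes between touching cells. A Jagged or Delta-like ligand on a signalling cell binds a Notch receptor on its neighbour, the receptor is cut by an ADAM protease and then by the gamma-secretase complex, and the freed intracellular part enters the nucleus. There it joins the DNA-binding protein RBPJ and a Mastermind-like coactivator to switch on genes such as those of the HES and HEY repressors. In the mouse embryo the pathway is known for the segmentation of presomitic mesoderm, where Dll1 is a main ligand, and for the making of arteries, where Dll4, Notch1, Hey1 and Hey2 act.

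Total counts per library were 21253194 to 27810161. No label says which embryos or cultures the 2 libraries of a group came from. By Xist and Y-linked counts both controls were male and each inhibitor group held 1 male library (replicate 1) and 1 female library (replicate 2). The PD libraries thus did not come from 1 embryo, nor did the YZ9 libraries, while the spread between the 2 controls may be technical. General mesoderm markers were present in every library, with 10 of 10 genes tested and a summed level of 1398 and 1645 CPM (TMM-scaled) with PD, 1340 and 1147 with YZ9, and 1941 and 1585 in controls. Of the paraxial mesoderm markers, 5 of 8 were tested, among them Meox1, with 219 and 129 counts in controls, and Foxc2, with 301 and 199. The tested markers also include Dll3, with 8 and 12 counts in controls, and Hes7, with 12 and 9. Both are Notch pathway genes as well, so this list is not separate from the pathway. The list summed to 14.5 and 3.54 CPM with PD, 18.8 and 6.71 with YZ9, and 22.3 and 14.6 in controls. Msgn1, which marks presomitic mesoderm, was at 0 counts in every library, and Tbx6 had at most 3. In 8 genes known to respond to ERK signalling, both PD libraries lay below both controls in all 8, and 5 fell at the threshold. Over all genes tested, 19.5% lay below both controls with PD and 0.0964% passed the threshold in either direction. With YZ9 none of the 8 passed it in edgeR (1 with an unadjusted p under 0.05).

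Among the 10 members, Jag1 had the highest level of the ligand genes in control explants, Notch2 of the receptor genes and Hes1 of the target genes. Levels were compared between genes as CPM per kilobase of exon. In controls Hes1 stood at 40.9 and 41.7, Jag1 at 24.5 and 28.7 and Notch2 at 6.45 and 8.83 CPM per kilobase, and the libraries of these 3 genes did not overlap each other. Hey2 averaged 1.90 ± 0.301, Hey1 1.66 ± 0.557 and Notch3 1.14 ± 0.417 CPM per kilobase (SD, n = 2), and neighbours in that order overlapped. Below them came Notch1 at 0.550 ± 0.310, then Dll1 at 0.0934 ± 0.0563 and Jag2 at 0.0862 ± 0.0532, whose libraries overlapped, and Dll4 at 0.00486 ± 0.00688 CPM per kilobase.

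The order at the top differed in treated explants. With PD, Hes1 was highest at 23.2 and 18.2 CPM per kilobase, then Notch2 at 8.19 and 5.73, then Jag1 at 3.82 and 1.58. The libraries of Hes1, Notch2 and Jag1 did not overlap each other. Those of Jag1 did overlap Hey1, at 4.027 and 0.3698, and Hey2, at 1.155 and 1.691 CPM per kilobase with PD. Per kilobase of the longest transcript, Hey1 averaged 2.96 and Jag1 2.8 CPM with PD, so the place of Jag1 below Notch2 was not resolved. With YZ9, Hes1 was again first at 26.1 and 21.1 CPM per kilobase, while Jag1 at 8.65 and 5.06 overlapped Notch2 at 6.002 and 6.137. Jag1 made up 91.9% to 92.6% of the level per kilobase summed over Jag1, Jag2, Dll1 and Dll4 with PD and 93.7% to 94.1% with YZ9, against 98.9% to 99.7% in controls. Notch2 held 81.3% to 88.4% of the level per kilobase summed over Notch1, Notch2 and Notch3 with PD and 75.1% to 75.4% with YZ9, against 74.6% to 88.3% in controls. The ligand shares are made from the same Jag1 levels and add no separate measurement of them. They leave out Dlk1, a Delta-like relative outside the 10 that is named here after its values were seen, which had 275 and 409 CPM with PD and 320 and 355 CPM with YZ9, against 410 and 255 CPM in controls, with all 3 groups overlapping.

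**Figure D1:**
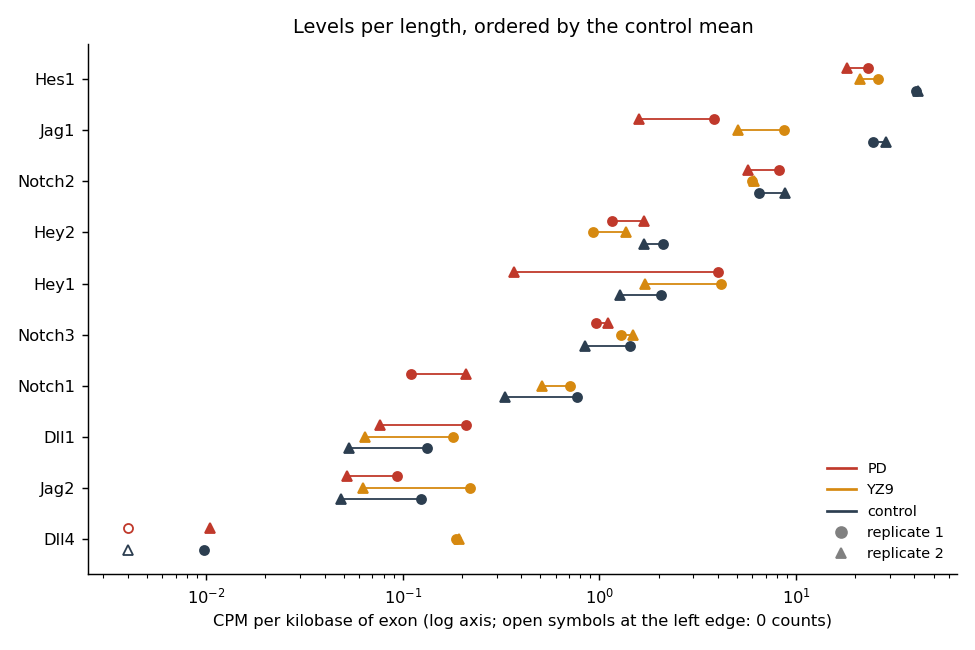
Level of each gene per library as CPM per kilobase of exon on a log axis, with PD, YZ9 and control libraries drawn from top to bottom within each gene, circles for replicate 1, triangles for replicate 2 and a line joining the 2 libraries of a group. Hes1 and Jag1 lead in controls, and Dll4 stands at 0.186 and 0.193 CPM per kilobase with YZ9 and at or near 0 elsewhere.

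The start regions of 3 members are shown because Jag1 and Notch1 had the lowest log2 fold changes with PD among the members, and Hey2 is a known direct target of RBPJ. RefSeq windows (GRCm38.p6, 250 bases before to 50 after the start, printed 5′ to 3′ on the gene's strand) were matched for 8 of the 10 members, all but Hes1 and Hey1. They were searched on both strands for the RBPJ core GTGGGAA, its shorter form TGGGAA, which lies inside it, and the N-box CACNAG, to which HES repressors bind. Capitals mark every match.
Jag1, chr2:137116471-137116770, minus strand: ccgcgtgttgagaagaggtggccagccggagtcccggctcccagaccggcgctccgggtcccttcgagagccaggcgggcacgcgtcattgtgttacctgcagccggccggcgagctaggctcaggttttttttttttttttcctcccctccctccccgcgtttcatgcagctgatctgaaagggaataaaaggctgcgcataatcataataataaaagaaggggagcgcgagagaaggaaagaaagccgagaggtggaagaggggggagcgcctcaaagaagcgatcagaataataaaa
Notch1, chr2:26503773-26504072, minus strand: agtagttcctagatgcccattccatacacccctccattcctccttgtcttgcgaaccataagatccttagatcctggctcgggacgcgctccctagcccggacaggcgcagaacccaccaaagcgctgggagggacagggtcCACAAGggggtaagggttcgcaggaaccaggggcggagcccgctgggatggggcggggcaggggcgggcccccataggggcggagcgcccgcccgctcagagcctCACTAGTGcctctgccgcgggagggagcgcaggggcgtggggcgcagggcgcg
Hey2, chr10:30842734-30843033, minus strand: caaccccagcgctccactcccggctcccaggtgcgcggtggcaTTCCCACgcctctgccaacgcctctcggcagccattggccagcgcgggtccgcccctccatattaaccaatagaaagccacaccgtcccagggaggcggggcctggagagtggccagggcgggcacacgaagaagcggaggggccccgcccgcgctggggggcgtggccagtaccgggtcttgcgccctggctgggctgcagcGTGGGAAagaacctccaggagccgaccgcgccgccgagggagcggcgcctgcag

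The Hey2 window held the RBPJ core 2 times, on the opposite strand from 207 bases before the start and on the printed strand across the start itself. It was the only member window with GTGGGAA or TGGGAA, which 6.38% and 25.6% of all 32851 RefSeq windows of this length hold. The Notch1 window held 3 N-box matches, of which 2 overlap on opposite strands at the start, and the Jag1 window held none of the motifs. The N-box was also in the windows of Dll4, Notch2, Notch3 and 1 of 2 Dll1 start sites, and 42.5% of all windows hold it. A match describes letters in the window and does not show that a protein binds there.

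PD against control asks what the inhibitor does to these genes. The Notch ligand gene Jag1 showed the largest difference among the members, Notch1 and Hes1 also lay lower in both PD libraries than in both controls, and no member rose or fell at an adjusted p of 0.05. edgeR's quasi-likelihood test called 0 of the 10 members, against 0.0964% of the 15568 genes tested. At an unadjusted p under 0.05, 3 members were lower and 0 higher, against 5.38% and 5.42% of all genes tested. The PD libraries lay below both controls for 3 members and above both for 0, against 19.5% and 19.2% of genes tested. DESeq2 called 3 members (Jag1, Notch1 and Hes1) and limma-trend 0. The members' median log2 fold change was -0.19, against 0.0044 over all genes tested. All 10 members entered the test, but Dll4 did so only through its YZ9 libraries, so counts over the members describe them and support nothing further.

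Jag1 (ENSMUSG00000027276, GRCm38 chromosome 2, 137081456 to 137116644, minus strand), whose product is a membrane ligand of Notch receptors, had 579 and 229 counts in the PD libraries, against 3809 and 4447 in controls. This was 22.3 and 9.22 CPM with PD and 143 and 167 CPM in controls, so the groups did not overlap. Jag1 averaged 15.7 ± 9.22 CPM with PD and 155 ± 17.5 CPM in controls (SD, n = 2 each). The log2 fold change was -3.30 (SE 0.47, 95% interval -4.42 to -2.18, edgeR adjusted p = 0.106), about 9.84-fold lower. In bulk explants, fewer cells that express a gene and less RNA per cell cannot be told apart.

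The call on Jag1 turned on the test and on single libraries. Jag1 passed under 5 of 16 alternatives, whose adjusted p ranged from 1.23e-10 to 0.537, and its log2 fold change stayed between -4.07 and -2.80 in all 16. Without PD replicate 1 the log2 fold change was -4.07 (adjusted p = 0.0388), and with the sex of the library in the model it was -2.92 (adjusted p = 0.0159). Without control replicate 1 it was -3.41 (adjusted p = 0.479) and without control replicate 2 it was -3.18 (adjusted p = 0.537). The authors' deposited table, made with DESeq2, lists Jag1 at a log2 fold change of -3.30 with an adjusted p of 1.83e-13.

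Markers of some other cell types also stood apart between groups. Markers of definitive endoderm and epithelium (9 of 10 tested, Cer1 at 0 counts in 5 of 6 libraries) summed to 11010 and 6998 CPM with PD and 6712 and 5398 CPM with YZ9, against 5328 and 4706 CPM in controls, most of it from the keratin genes Krt8 and Krt18. Of its 9 tested genes, 8 lay above both controls in both PD libraries and 7 in both YZ9 libraries, with median log2 fold changes of 4.00 and 2.30. Over all genes tested, 19.5% lay below and 19.2% above both controls with PD, and 24.5% and 21.1% with YZ9. These shares also apply to the marker counts that follow. Lateral and cardiac mesoderm markers (12 of 12 tested) summed to 4133 and 2323 CPM with PD and 3525 and 2196 CPM with YZ9, against 5198 and 4175 CPM in controls. Actc1, the cardiac actin gene, made up most of that gap with YZ9, at 1654 and 629 CPM against 3309 and 2452 CPM in controls. Of the 12 genes, 6 lay below and 1 above both controls with PD (median log2 fold change -0.58), and 3 below and 2 above with YZ9 (median 0.03). The YZ9 counts of this list are near the shares over all genes.

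Endothelial markers (14 of 14 tested) summed to 517 and 603 CPM with PD and 467 and 507 CPM with YZ9, against 556 and 484 CPM in controls, so the sums overlapped. Tek, an angiopoietin receptor gene, held a large share of the sum, at 183 and 351 CPM with PD against 164 and 135 CPM in controls. Of the 14 genes, 7 lay below and 1 (Tek) above both controls with PD (median log2 fold change -0.33), and Tie1 and Pecam1 were lower at an unadjusted p under 0.05. Primitive blood markers (12 of 12 tested) summed to 530 and 7217 CPM with PD and 48.5 and 1294 CPM with YZ9, against 2656 and 7917 CPM in controls. The 2 libraries of each group thus differed widely. All 12 genes overlapped between PD and controls, and 9 of the 12 lay below both controls in both YZ9 libraries.

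Visceral endoderm markers (7 of 12 tested) summed to 92.9 and 18.0 CPM with PD and 5.55 and 7.96 CPM with YZ9, against 6.22 and 11.8 CPM in controls. With PD 4 of the 7 lay above both controls, among them Afp, with 892 and 143 counts with PD against 24 and 15 in controls. Of the primitive streak markers (6 of 8 tested), 3 lay below both controls with PD, among them Eomes, with 0 and 0 counts with PD against 185 and 145 in controls. Of the trophoblast markers, 3 of 7 were tested and 2 of these lay below both controls with PD. No gene of the 10 marker lists passed the threshold in any of the 3 comparisons by edgeR. At an unadjusted p under 0.05 with PD, 7 endoderm and epithelium genes, 3 visceral endoderm genes and 1 gene each of the lateral and cardiac, general mesoderm and epiblast lists were higher. At the same p, 3 primitive streak genes and 2 genes each of the endothelial, trophoblast, lateral and cardiac, and general mesoderm lists were lower. Over all genes tested, 5.42% were higher and 5.38% lower with PD at that p. The part of these markers in the levels of the Notch genes was not tested. The genes named within these lists were chosen after their values were seen.

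**Figure D2:**
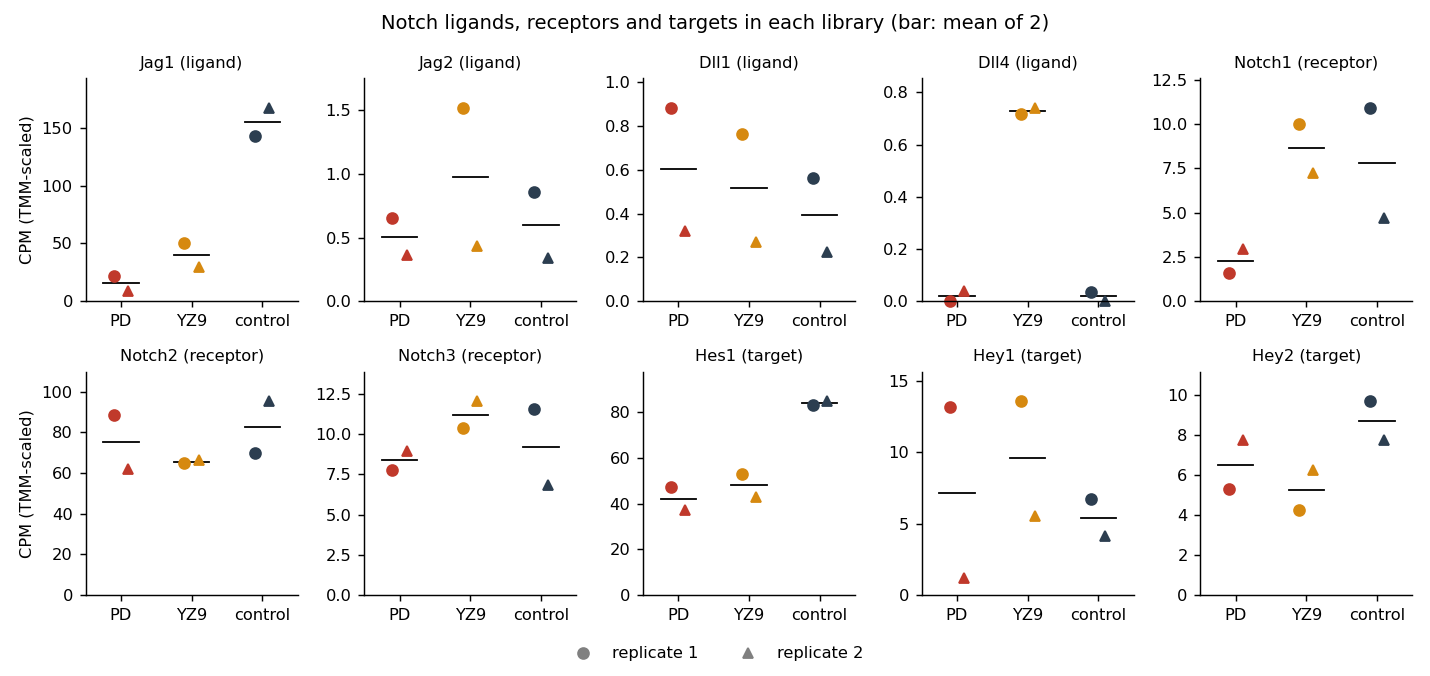
CPM of each member in every library, on a linear axis from 0, with a bar at the mean of the 2 libraries of PD, YZ9 and control explants. Jag1 and Hes1 are lower in all 4 treated libraries than in both controls, Notch1 is low with PD, and Dll4 has counts above 1 with YZ9 alone.

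The other ligand genes were rare and their libraries overlapped. Jag2, the second Jagged ligand, had 17 and 9 counts with PD against 23 and 9 in controls (log2 fold change -0.24, 95% interval -2.32 to 1.85). Dll1 had 23 and 8 counts with PD against 15 and 6 in controls (log2 fold change 0.61, 95% interval -1.56 to 2.78). Differences smaller than these wide intervals were not detectable at this depth. A gene on the other strand covers 20.5% of the Dll1 exon length, and reads there cannot be assigned, since the libraries are unstranded. Dll4 had 0 and 1 counts with PD and 1 and 0 in controls, and no fold is given for it.

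Of the receptors, Notch1 (ENSMUSG00000026923, chromosome 2, 26457903 to 26516663, minus strand) had 41 and 74 counts with PD, against 292 and 125 in controls. In CPM it had 1.58 and 2.98 with PD and 10.9 and 4.71 in controls, so the groups did not overlap although the 2 controls differed 2.33-fold from each other. The log2 fold change was -1.78 (SE 0.53, 95% interval -3.05 to -0.51, edgeR adjusted p = 0.277). It was -1.05 without control replicate 1, and Notch1 passed under 3 of 16 alternatives (adjusted p from 0.0299 to 0.672). Exons of antisense genes overlap 9.76% of the Notch1 exon length. The authors' deposited table gives Notch1 an adjusted p of 0.0710.

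Notch2, the receptor gene with the highest level, had 88.3 and 61.7 CPM with PD against 69.6 and 95.2 CPM in controls. Its groups overlapped and its interval was narrow, with a log2 fold change of -0.14 (95% interval -0.70 to 0.43, edgeR adjusted p = 0.926). Notch3 had 7.77 and 8.98 CPM with PD against 11.6 and 6.81 CPM in controls (log2 fold change -0.14, 95% interval -0.93 to 0.66). For both receptors a change beyond about 2-fold lay outside the interval.

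Among the targets, Hes1 (ENSMUSG00000022528, chromosome 16, 30064384 to 30067796, plus strand), which encodes a basic helix-loop-helix repressor, had 1228 and 921 counts with PD against 2222 and 2255 in controls. It averaged 42.1 ± 7.17 CPM with PD and 84.1 ± 1.14 CPM in controls (SD, n = 2 each), 2.00-fold lower, and the groups did not overlap. The log2 fold change was -0.996 (SE 0.20, 95% interval -1.46 to -0.53, edgeR adjusted p = 0.157). Hes1 passed under 2 of 16 alternatives, edgeR without the filter on low counts and DESeq2 (adjusted p from 0.00228 to 0.637), and the authors' deposited table lists it with an adjusted p of 0.00562. Its log2 fold change kept between -1.18 and -0.83 in the 16.

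Hey1 and Hey2, repressors of the same protein class that act in heart and vessels, overlapped between the groups. Hey1 had 342 and 30 counts with PD against 179 and 110 in controls, a 10.9-fold gap in CPM between the 2 PD libraries. Its log2 fold change of 0.40 (SE 0.97, 95% interval -1.93 to 2.74) became -2.16 without PD replicate 1 and 1.28 without PD replicate 2. Hey2 had 5.31 and 7.77 CPM with PD against 9.71 and 7.75 CPM in controls (log2 fold change -0.42, 95% interval -1.27 to 0.43).

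YZ9 against control asks the same of a blocker of PFKFB3. Jag1 and Hes1 lay lower in both YZ9 libraries than in both controls, Notch1 overlapped with controls, and Dll4 had its only counts above 1. edgeR called 0 of 10 members, against 0.00642% of genes tested, and 2 members were lower and 1 higher at an unadjusted p under 0.05 (6.93% and 4.34% of genes tested). DESeq2 called 2 members, Jag1 and Hes1, and limma-trend 0. Both YZ9 libraries lay below both controls for 4 members (Jag1, Notch2, Hes1 and Hey2) and above both for 1 (Dll4), against 24.5% and 21.1% of genes tested. Dll4 entered the test through its YZ9 libraries alone, so it had to lie above both controls. The members' median log2 fold change was 0.21, against 0.0021 over all genes tested. Both comparisons use the same control libraries, so their values stand side by side and are not independent.

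Jag1 had 1125 and 874 counts with YZ9, against 3809 and 4447 in controls. In CPM this was 50.4 and 29.5 with YZ9 and 143 and 167 in controls, with no overlap. The log2 fold change was -1.96 (SE 0.44, 95% interval -3.01 to -0.90, edgeR adjusted p = 0.227), about 3.89-fold lower. It passed under 4 of 16 alternatives (adjusted p from 1.17e-04 to 0.852), and was -1.50 with sex in the model (adjusted p = 0.0496). The authors' deposited table lists it at -1.94 with an adjusted p of 1.04e-07.

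Hes1 had 1188 and 1275 counts with YZ9, against 2222 and 2255 in controls. It averaged 48.1 ± 7.22 CPM with YZ9 and 84.1 ± 1.14 CPM in controls (SD, n = 2 each), 1.75-fold lower with no overlap. The log2 fold change was -0.81 (SE 0.19, 95% interval -1.27 to -0.34, edgeR adjusted p = 0.249), and Hes1 passed under DESeq2 alone of 16 alternatives (adjusted p from 0.0313 to 0.863). Its adjusted p in the authors' deposited table is 0.0509. Hey2 was also below both controls, at 4.26 and 6.27 CPM with YZ9 against 9.71 and 7.75 CPM in controls (log2 fold change -0.73, 95% interval -1.58 to 0.13, edgeR adjusted p = 0.499). Hey1 overlapped, at 13.6 and 5.57 CPM with YZ9 against 6.71 and 4.14 CPM in controls.

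Dll4 (ENSMUSG00000027314, chromosome 2, 119325784 to 119335962, plus strand), the Delta-like ligand of arterial endothelium, had 16 and 22 counts with YZ9, against 1 and 0 in controls and 0 and 1 with PD. The ratio of YZ9 to control was 38.9, with an exact 95% counting interval of 6.58 to 1580 that covers counting error only. By edgeR the adjusted p was 0.255, and it passed under 0 of 15 alternatives that gave a value (adjusted p from 0.102 to 0.920). Dll4 entered the test through its YZ9 libraries alone, and a gene that passes the filter this way has to differ. Exons on the opposite strand overlap 5.56% of its exon length. Of the 14 endothelial markers, 3 were higher and 1 lower with YZ9 at an unadjusted p under 0.05, against 4.34% and 6.93% of all genes tested. Both YZ9 libraries lay below both controls for 4 of the 14 and above both for 3, against 24.5% and 21.1%. The part of these markers in the Dll4 counts was not tested.

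Receptor genes showed no common direction with YZ9. Notch1 had 10.0 and 7.25 CPM with YZ9 against 10.9 and 4.71 CPM in controls (log2 fold change 0.14, 95% interval -1.08 to 1.36). Notch2 had 64.7 and 66.2 CPM with YZ9 against 69.6 and 95.2 CPM in controls (log2 fold change -0.33, 95% interval -0.89 to 0.23), without overlap. Notch3 had 10.4 and 12.0 CPM with YZ9 against 11.6 and 6.81 CPM in controls (log2 fold change 0.29, 95% interval -0.51 to 1.08). The rare ligand genes Jag2 and Dll1 overlapped with controls as well, with 34 and 13 counts and 17 and 8 counts with YZ9.

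**Figure D3:**
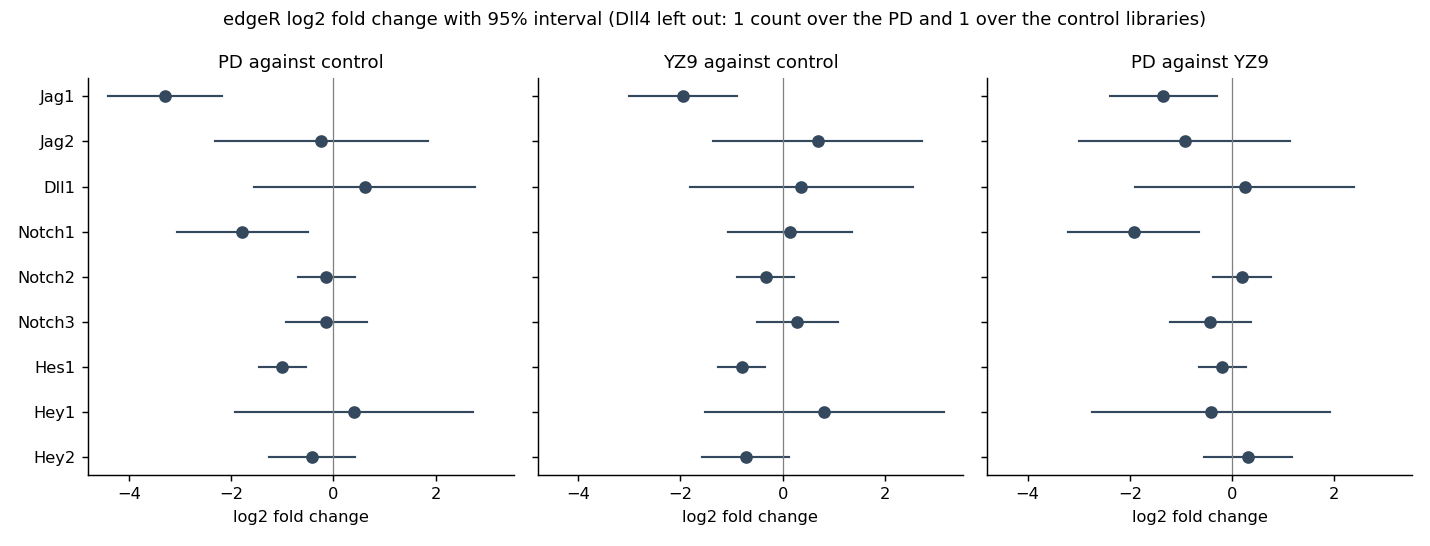
log2 fold change of 9 members in the 3 comparisons, as points with 95% intervals from the edgeR fit, with Dll4 left out because its PD and control libraries hold 1 count each in all. The whole interval of Jag1 lies below 0 in all 3 panels, that of Hes1 in the 2 against control, and that of Notch1 in the 2 that hold PD.

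PD against YZ9 asks whether the inhibitors differ from each other. Notch1 and Jag1 lay lower with PD than with YZ9, while Hes1 overlapped. edgeR called 0 of 10 members, against 0.122% of genes tested, with 3 members (Jag1, Notch1 and Dll4) lower and 0 higher with PD at an unadjusted p under 0.05 (4.4% and 7.09% of genes tested). Both PD libraries lay below both YZ9 libraries for these and Notch3, 4 members in all, and above both for 0, against 21.4% and 21.6% of genes tested. Dll4 entered the test through its YZ9 libraries alone, so it had to lie below them, and these counts only describe the members. The members' median log2 fold change was -0.42, against -0.0016 over all genes tested. DESeq2 called Notch1 alone and limma-trend none. Notch1 had 1.58 and 2.98 CPM with PD against 10.0 and 7.25 CPM with YZ9, with no overlap. Its log2 fold change was -1.92 (SE 0.53, 95% interval -3.20 to -0.64, edgeR adjusted p = 0.288, and from 0.0192 to 0.667 over 16 alternatives). Of the 8 ERK-responsive genes, 5 fell in this comparison as well.

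Jag1 had 22.3 and 9.22 CPM with PD against 50.4 and 29.5 CPM with YZ9, again without overlap. The log2 fold change was -1.34 (SE 0.44, 95% interval -2.39 to -0.29, edgeR adjusted p = 0.349). It was -0.85 without PD replicate 2 and -2.11 without PD replicate 1, with adjusted p from 0.00707 to 0.822 over 16 alternatives. Hes1 overlapped, at 47.2 and 37.1 CPM with PD against 53.2 and 43.0 CPM with YZ9, and its log2 fold change was -0.19 (95% interval -0.65 to 0.27). A difference of 2-fold in Hes1 between the inhibitors, in either direction, lies outside that interval. For Dll4 the ratio of PD to YZ9 was 0.0269, with an exact 95% counting interval of 6.64e-04 to 0.159 that covers counting error only. Since Dll4 passed the filter through its YZ9 libraries alone, it had to lie lower with PD, and the ratio supports nothing further.

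The wider pathway was read from a list of 54 further genes in 6 roles, of which 49 were tested. By edgeR 0 of the 49 passed with PD, 0 with YZ9 and 0 between the inhibitors. With PD 4 were lower and 0 higher at an unadjusted p under 0.05, against 5.38% and 5.42% of all genes tested, so the lower count is near the background. Both PD libraries lay below both controls for 9 of the 49 and above both for 12, against 19.5% and 19.2% of all genes tested. At the same unadjusted p, with YZ9 1 was lower and 1 higher, against 6.93% and 4.34% of all genes tested. Between the inhibitors 2 were lower and 2 higher with PD, against 4.4% and 7.09%. The median log2 fold change of the 49 was -0.03 with PD and 0.07 with YZ9, against 0.0044 and 0.0021 over all genes tested. Hes5, a target gene of neural tissue, had 0 counts in every library.

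The 4 that were lower with PD all belong to the nuclear complex, in which 14 genes were tested, against 5.38% of all genes tested. This role was singled out after its values were seen, and so were its named genes besides Rbpj. Both PD libraries lay below both controls for 5 of the 14 and above both for 2, against 19.5% and 19.2% of all genes tested. With YZ9 1 of the 14 was lower and 0 higher at an unadjusted p under 0.05, against 6.93% and 4.34%. Rbpj, the DNA-binding partner of the Notch intracellular part, had 17.9 and 16.6 CPM with PD and 27.4 and 22.3 CPM with YZ9, against 32.4 and 28.5 CPM in controls. Its log2 fold change with PD was -0.82 (SE 0.22, edgeR adjusted p = 0.230). Maml2, a Mastermind-like coactivator, had 33.8 and 34.9 CPM with PD and 28.8 and 22.02 CPM with YZ9, against 51.8 and 62.0 CPM in controls. It was lower in all 4 treated libraries, at -0.73 with PD (adjusted p = 0.258) and -1.16 with YZ9 (adjusted p = 0.181). Maml3, its relative, and Tle4, a corepressor that binds HES proteins, had log2 fold changes of -0.86 and -0.94 with PD (adjusted p = 0.309 and 0.277).

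In each other role the gene with the smallest p with PD is given by its values. Heyl, another HEY-type target, had 2 and 18 counts with PD and 28 and 7 with YZ9, against 80 and 46 in controls. All 4 treated libraries lay below both controls, while PD and YZ9 overlapped (edgeR adjusted p = 0.498 with PD). Mfng, a fringe enzyme that adds sugar to Notch receptors, had 31 and 12 counts with PD and 18 and 29 with YZ9, against 70 and 30 in controls. Adam10, the protease of the first cut, had 236 and 265 CPM with PD and 171 and 162 CPM with YZ9, against 193 and 226 CPM in controls. Between the inhibitors Adam10 had a log2 fold change of 0.59 (SE 0.15, edgeR adjusted p = 0.254). Adam17, a related protease named after its values were seen, had 49.2 and 58.0 CPM with PD and 74.9 and 69.8 CPM with YZ9, against 49.2 and 49.4 CPM in controls.

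Numb, an inhibitor that sorts Notch receptors for degradation, had 48.9 and 67.3 CPM with PD and 46.5 and 65.5 CPM with YZ9, against 46.0 and 39.5 CPM in controls. All 4 treated libraries lay above both controls (edgeR adjusted p = 0.619 with PD). Dll3, a divergent ligand that acts within the cell that makes it, had 12 and 18 counts with PD and 12 and 30 with YZ9, against 8 and 12 in controls.

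**Figure D4:**
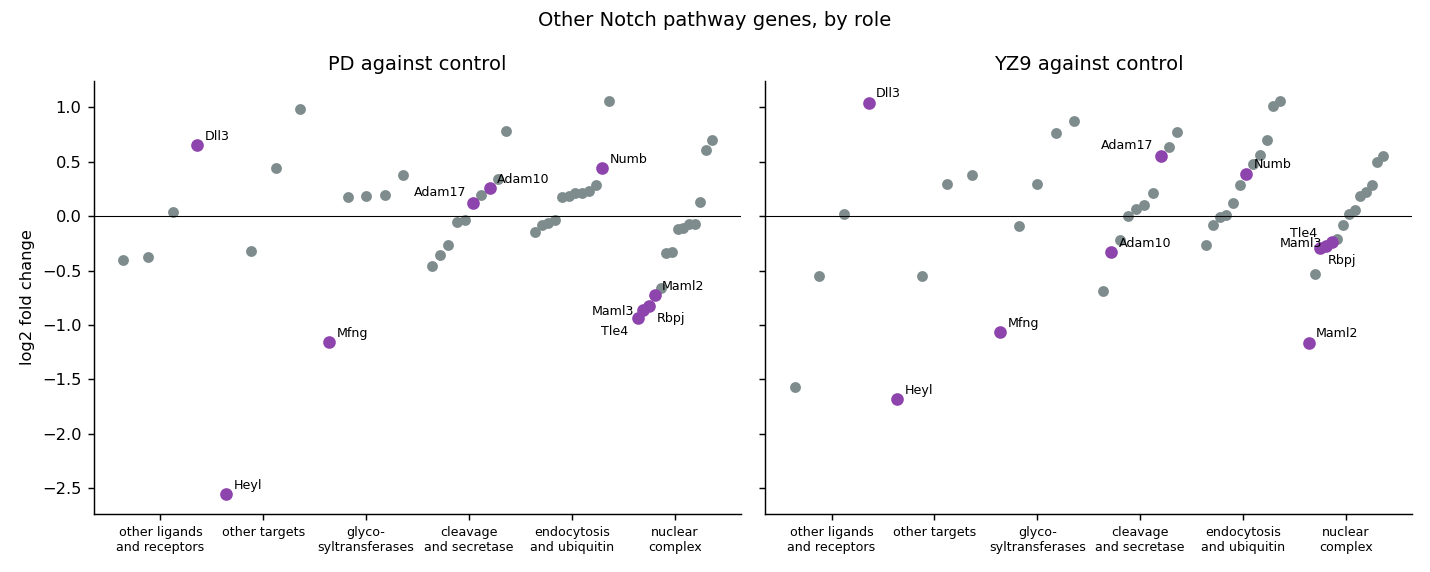
log2 fold change of the 49 other pathway genes tested, by role, for PD against control on the left and YZ9 against control on the right, with labelled genes in purple. None passed the threshold in either comparison, and Rbpj, Maml3 and Tle4 lie near the low end of the nuclear complex with PD.

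Genes with the profile most like that of Jag1 and of Hes1 were sought among 8682 genes of at least 10 CPM, by Euclidean distance between log2 CPM centred over the 6 libraries. The 5 closest to Jag1 were Gpm6a (distance 0.724), Sorbs2 (0.808), Gucy1b1 (0.992), Stambpl1 (1.13) and Edil3 (1.14). Gpm6a, a membrane glycoprotein gene, had 2.38 and 1.97 CPM with PD and 7.52 and 4.25 CPM with YZ9, against 19.6 and 25.8 CPM in controls. Gucy1b1, a subunit of soluble guanylate cyclase, had 32.1 and 14.7 CPM with PD and 45.1 and 39.7 CPM with YZ9, against 132 and 125 CPM in controls. As with Jag1, the PD libraries were lowest, the YZ9 libraries between and the controls highest.

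The 5 closest to Hes1 were Adam12 (0.173), Pde5a (0.211), Gstm1 (0.221), Fli1 (0.248) and Plin2 (0.259). Fli1, an ETS factor of blood and endothelium, had 31.7 and 24.6 CPM with PD and 33.4 and 28.9 CPM with YZ9, against 47.4 and 60.3 CPM in controls. Plin2, which coats lipid droplets, had 345 and 236 CPM with PD and 331 and 250 CPM with YZ9, against 501 and 515 CPM in controls. With 6 libraries in 3 groups, closeness describes these libraries only.

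**Figure D5:**
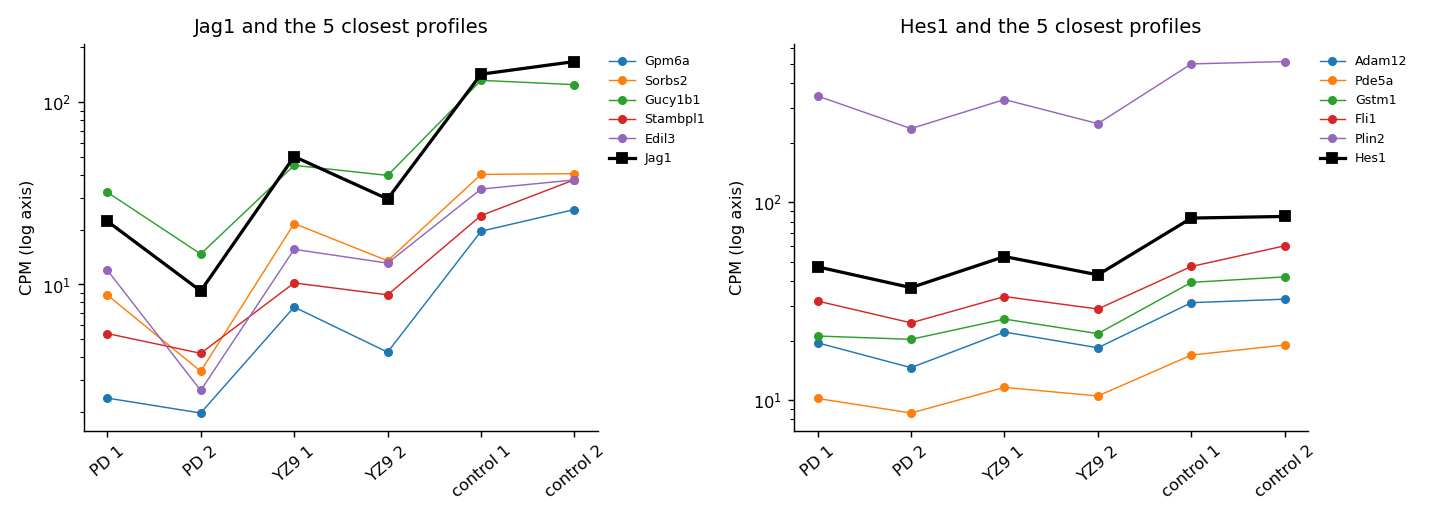
CPM on a log axis in each library for Jag1 (left, black) and Hes1 (right, black) and the 5 genes with the closest centred profile, with PD, YZ9 and control libraries from left to right. Jag1 and its closest genes step up between PD, YZ9 and control libraries, whereas Hes1 and its closest genes lie at like levels with PD and YZ9.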

How the data were processed

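The authors' deposited tables, 1 for PD and 1 for YZ9, hold whole-number counts per gene for 46078 genes, per the file headers. The authors' deposited normalized columns are a signal, each count divided by a size factor per library, and were not used. The deposited log2 fold changes, p-values and adjusted p-values are those of the authors' DESeq2 test, whose statistic is deposited as a score that was not used. They are quoted here only where the authors' deposited table is named. Per the submitters' processing notes, CASAVA 1.8.2, STAR 2.7.9a, DESeq2 1.40.1 and GRCm38 were used. The counting step is not given in the sources used here, and the low-input kit keeps no strand.

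Both tables carry the same control counts, and counts were joined over 6 libraries. Genes were filtered with filterByExpr (minimum count 10, minimum total 15), which left 15568, scaled by TMM, and tested in R 4.3.3 with edgeR 4.0.16 (quasi-likelihood, all 6 libraries in 1 fit, 2-sided, Benjamini-Hochberg over all genes, threshold 0.05). The fit's common dispersion was 0.101. The SE was taken as the size of the log2 fold change divided by the root of F, and 95% intervals use the fit's t distribution. CPM use TMM-scaled library sizes, and lengths are unions of GENCODE M21 exons (GRCm38). Each SD covers 2 libraries. Chi-square per gene between replicates averaged 86.7 with PD, 56.3 with YZ9 and 49.6 in controls. As a mean over genes it can be carried by abundant ones, so it does not give the part of counting error in any single gene.

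Alternatives were scaling by DESeq2 size factors, testing without a filter or only above a mean count of 50, DESeq2 1.42.0, limma-trend (limma 3.58.1), edgeR's newer fit, fitting each comparison on its own 4 libraries, a block for replicate number, sex as a covariate, male libraries alone, and leaving out each library. All members are named. Of the other pathway genes, the rule named those past the threshold and, per role, the gene with the smallest p with PD. The members, lists, tests and alternatives were chosen with earlier results of these data known. The pipeline was tested on simulated counts in which every gene had the fit's common dispersion. Spread that differs between genes was not simulated, so that test does not bear on the calls that differed between tools.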

Additional observations from a re-analysis of the deposited data

How the results depend on the processing

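With 2 libraries a group, the counts of calls rested on the tool, the filter and single libraries, and the cause was not tested. edgeR's 15 calls for PD against control, 1 for YZ9 against control and 19 for PD against YZ9 became 712, 556 and 601 without the filter, 629, 519 and 534 with DESeq2, 124, 122 and 173 with sex as a covariate, and 707, 403 and 335 in the male libraries alone. Members called, 0 in each comparison, became 3, 1 and 2 without the filter, 3, 2 and 1 with DESeq2, 1, 1 and 1 with sex as a covariate, and 2, 1 and 1 in the male libraries alone. The 4 libraries alone gave 5 calls for YZ9 against control and 0 for PD against YZ9. For PD against YZ9, limma-trend gave 34 and the newer fit 29. With the replicate number as a block the calls were 1, 3 and 12, and 0 members were called. Same-numbered libraries deviated together with correlations of 0.346 (PD with YZ9), -0.0961 (PD with control) and 0.149 (YZ9 with control), so the numbers were not taken to pair libraries. In the PD and YZ9 groups replicate 1 was male and replicate 2 female, so replicate number and sex cannot be told apart there. Leaving out 1 library gave 0 to 33, 0 to 9 and 0 to 35 calls, and 0 to 1 members for PD against control. Without either control, edgeR made 0 calls in each comparison.

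Jag1 and Hes1 kept their direction in all 3 comparisons and under all 16 alternatives, as did Notch1 in both that hold PD. Of 468 values of members under alternatives, 29 turned round. The main edgeR fit called 0 members in each comparison, so there was no called value that could turn round. Against control with PD, Hey1 was -0.36 with limma-trend and -0.20 with the block, Jag2 0.36 with sex and 0.13 in males, Notch2 0.10 in males, and Dll4, a fit of 1 count against 1, -0.17 with sex and -2.26 in males. Leaving out 1 library, the ranges with PD against control were -0.76 to 0.58 (Jag2), -0.29 to 1.4 (Dll1), -2.30 to 2.35 (Dll4), -0.41 to 0.11 (Notch2), -0.47 to 0.30 (Notch3) and -2.16 to 1.28 (Hey1). With YZ9 against control they were -0.44 to 1.51 (Jag2), -0.53 to 1.16 (Dll1), -0.34 to 0.88 (Notch1) and -0.0483 to 0.72 (Notch3). With PD against YZ9 they were -1.59 to 0.20 (Jag2), -0.65 to 1.14 (Dll1), -0.0829 to 0.42 (Notch2), -2.98 to 0.45 (Hey1) and -0.0023 to 0.60 (Hey2). Depth limits Jag2, Dll1 and Dll4, with 105, 77 and 40 counts over the 6 libraries.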
